A study of Mus musculus with 4 samples.

Results

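The expression of 8 surface marker genes of lymphoid tissue inducer cells and of lymphocyte activation was followed in mouse group 3 innate lymphoid cells (ILC3s), either cultured in medium or given TL1A, a cytokine of the TNF superfamily. The 8 genes, Cd4, Thy1, Kit, Nrp1, Cd69, Cd44, Cd83 and Cd81, were chosen by name and looked up by symbol among the 24343 genes of the deposited table. All 4 libraries came from mice of genotype IL23R-GFP/WT, in which 1 copy of the IL-23 receptor gene carries a GFP reporter, and from cells sorted as Lin-, CD127+ and GFP+. There were 2 medium libraries and 2 TL1A libraries. Both groups carry the reporter, and no unstimulated cells without it were part of the comparison. The dose of TL1A, the time in culture, the age of the mice, the tissue and the antibodies of the lineage gate are not stated in the labels. Separate animals or cultures are not named for the 2 libraries of a group, so the spread between them may be technical. The libraries held 11495636 to 12605164 reads assigned to transcripts. Genes that define ILC3s were read in every library: Il7r, the gene of the sorting marker CD127, had 12994 to 48880 reads, and Il23r had 7132 to 13292.

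Lymphoid tissue inducer (LTi) cells are the ILC3s that start the building of lymph nodes and Peyer's patches through lymphotoxin, and LTi-like cells persist in the adult gut. They are recognised by CCR6 and by high KIT and THY1, some carry CD4, and NRP1 has been used to tell them from other ILC3s. The other markers belong to lymphocyte activation: CD69 appears early after stimulation and holds cells in tissue by removing the egress receptor S1PR1 from the surface, CD44 binds hyaluronan, CD83 stabilises MHC class II and costimulatory molecules, and CD81 is a tetraspanin that organises other surface proteins.

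Only 5 of the 8 genes shared no bases with another row of the same gene. The deposited rows are transcripts, not genes, and a read that lies in exons shared by several rows was counted for none of them. Cd4, Thy1, Nrp1, Cd69 and Cd81 have 1 row each and gave 11773 to 68294 reads over the 4 libraries. Even so, 328 exonic bases of Cd81 and 37 of Nrp1 lie inside other annotated genes, where reads may have been left uncounted. Kit, Cd44 and Cd83 have 2, 6 and 2 rows and gave 1, 91 and 3 reads. Across the table, 64.1% of genes with several rows had fewer than 10 reads in all, against 49.7% of genes with 1 row. Lengths and shared bases were taken from GENCODE M21 models on GRCm38, matched by RefSeq accession. These may differ from the mm9 annotation that the authors counted on.

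The 2 Kit rows differ by very little sequence. In the matched models, 12 of the 5214 exonic bases of row NM_001122733 are in no other Kit row, and 39 of the 5241 of NM_021099, all in its 5' untranslated region. The 12 bases lie at the end of exon 9 (GRCm38, chr5:75639147-75639158, plus strand), which is coding, and they make the known long and short forms of the KIT receptor. They are shown, with 12 bases of the spliced transcript on each side, because they are all the Kit coding sequence on which a read could be given to a single row; capitals mark the bases found only in NM_001122733.
Kit NM_001122733: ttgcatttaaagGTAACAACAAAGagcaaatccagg

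Cd44 was counted on part of its sequence. Of its 6 rows, 5 have no base of their own and had 0 reads in every library. Row NM_009851 has 1873 of 5614 exonic bases in no other Cd44 row, namely 115 bases at its 5' end, 1389 bases at its 3' end and 369 coding bases in exons 6, 7 and 8. These exons belong to the variable stem of CD44, which the short standard form lacks. They are shown whole because the Cd44 reads can only come from them, from the transcript's own ends or from their borders; capitals mark bases of NM_009851 in no other row (GRCm38, minus strand, chr2:102848657-102848782, chr2:102846403-102846519 and chr2:102845285-102845410).
Cd44 exon 6: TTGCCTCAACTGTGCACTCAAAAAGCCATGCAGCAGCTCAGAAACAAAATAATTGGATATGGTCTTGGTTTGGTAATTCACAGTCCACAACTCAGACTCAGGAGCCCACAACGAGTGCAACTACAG
Cd44 exon 7: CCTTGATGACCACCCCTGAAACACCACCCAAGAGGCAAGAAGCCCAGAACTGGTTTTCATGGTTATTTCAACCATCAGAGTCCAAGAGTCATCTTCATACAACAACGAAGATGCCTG
Cd44 exon 8: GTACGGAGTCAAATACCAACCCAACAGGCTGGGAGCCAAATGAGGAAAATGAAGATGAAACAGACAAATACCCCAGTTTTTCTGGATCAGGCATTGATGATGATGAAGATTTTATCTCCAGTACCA

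The 2 Cd83 rows matched the same GENCODE model of 2477 bases, so the bases that tell them apart could not be read from it.

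**Figure D1:**
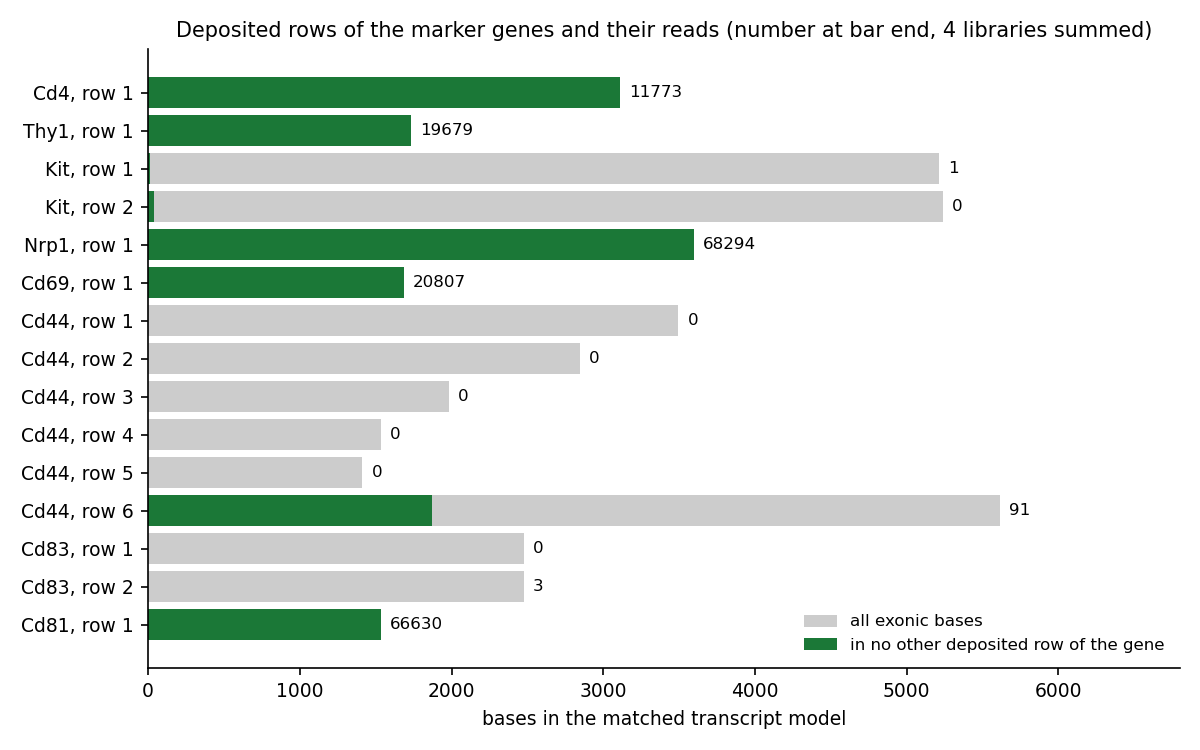
Each bar is 1 deposited row of a marker gene, its length the exonic bases of the matched GENCODE M21 model (grey) and the bases in no other row of that gene (green), with the reads of all 4 libraries at its end. Rows that are green throughout hold 11773 to 68294 reads, whereas the rows of Kit, Cd44 and Cd83 hold 0 to 91; the Cd83 rows share 1 model and show no green for that reason.

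With TL1A, Cd4 fell and Thy1, Cd69 and the counted part of Cd44 rose, while Nrp1 and Cd81 did not pass the test and Kit and Cd83 had too few reads to be tested. Values are CPM, that is, read counts scaled to a common library size by the trimmed mean of M-values (TMM), and a gene was called at a Benjamini-Hochberg adjusted p under 0.05 in edgeR's quasi-likelihood test over all 9852 genes with enough reads. In this comparison 42.3% of the genes tested were called, 20.6% as higher and 21.7% as lower, so a call by itself was common. Of the 6 marker genes tested, 3 were called higher and 1 lower, a count that includes Cd44. Cd44 passed the filter on low counts only through the TL1A libraries, so that gene could enter the test only if it rose. The library values of the groups did not overlap for 4 of the 6, against 72.2% of all genes tested. With 2 libraries a group an exact permutation test cannot go below p = 0.333, so each call rests on the spread that edgeR pools across genes.

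**Figure D2:**
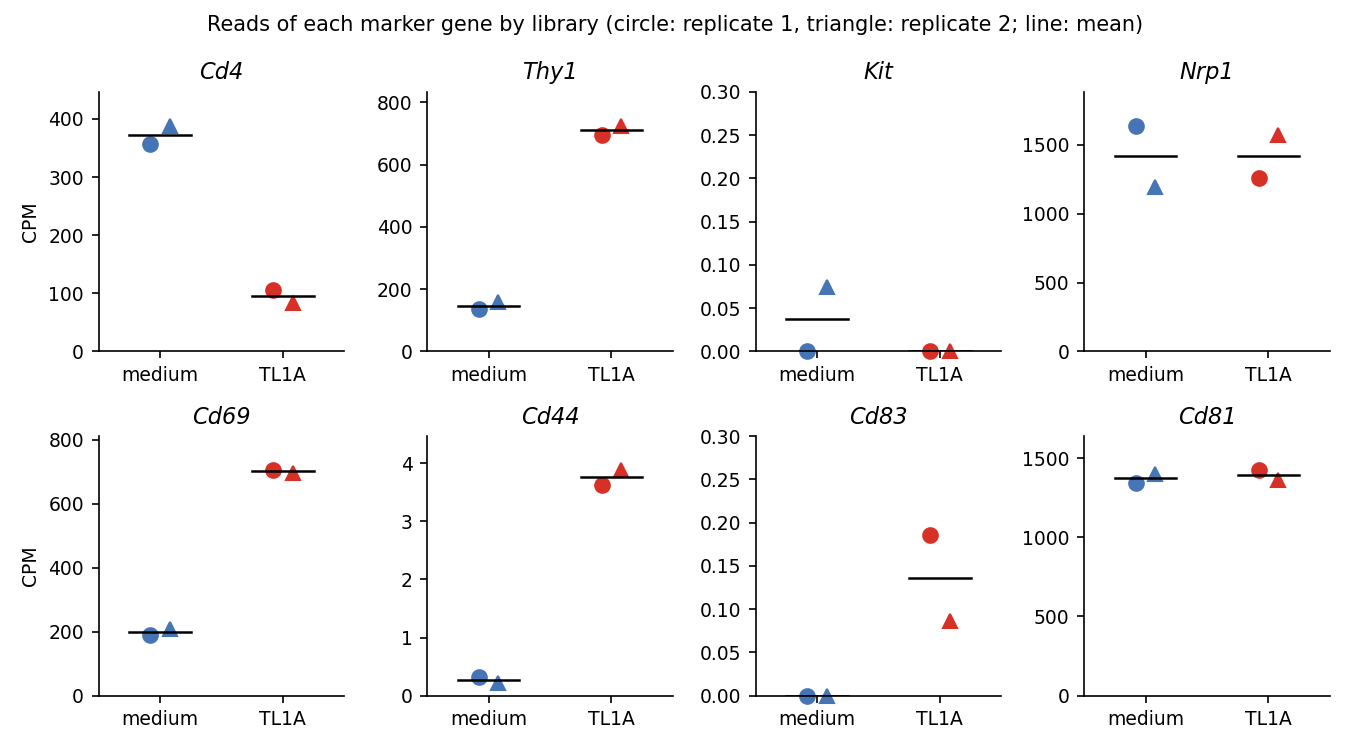
CPM of the 8 marker genes (y axis, linear, from 0, scaled per gene) in medium and with TL1A, with a circle for replicate 1, a triangle for replicate 2 and a line at the mean of 2 libraries. The groups are far apart for Cd4, Thy1, Cd69 and Cd44 and overlap for Nrp1 and Cd81; the Kit and Cd83 points rest on 1 and 3 reads.

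Cd4 encodes the co-receptor for MHC class II that helper T cells and part of the LTi cells carry. It had 4475 and 5183 reads in the medium libraries and 1139 and 976 in the TL1A libraries, or 356.3 and 388.2 CPM against 105.9 and 84.15 CPM. Both TL1A libraries lay below both medium libraries. The mean went from 372.3 ± 22.5 to 95.04 ± 15.4 CPM (SD, n = 2), a 3.92-fold fall (log2 fold change -1.97, SE 0.12, 95% interval -2.25 to -1.69; edgeR adjusted p = 1.49e-05). Of the genes tested, 3.98% had a lower log2 fold change than Cd4. In these bulk samples, fewer cells with Cd4 and less Cd4 RNA per cell cannot be told apart.

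T cells also carry CD4, and the Cd3 chain genes of their receptor complex were close to 0. Trac and Trbc1, the T cell receptor constant region genes, were listed but were not in the table. Cd3d, Cd3e and Cd3g, which encode chains of the T cell receptor complex, had 0 to 44 reads in any library, beside 976 to 5183 for Cd4, and each of these 3 has 1 row. Cd8a and Foxp3 had 0 in every library, but they have 2 and 3 rows, so reads shared between rows may be missing there as for Kit. Of the 12 T cell markers listed, 10 were in the table and 5 were tested. Cd28 was called lower and none higher. Cd28 had 21 and 67 reads in medium, against 5 and 4 in the TL1A libraries. It passed the filter on low counts only through its medium reads, so it could enter the test only if it fell. The summed level of the T cell markers was 126.9 to 142.5 CPM in medium and 106.8 to 122.4 CPM with TL1A. Most of that sum was Lat (1074 to 1732 reads), a signalling adaptor gene that is not specific to T cells.

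Few genes that act on the Cd4 locus or with the CD4 protein could be tested. Of 13 symbols listed, 12 were in the table, since Mazr is another name of Patz1. Of the 5 genes tested, 3 were called lower, 1 was called higher and 1 was not called. The median log2 fold change was -0.70, beside -0.03 over all genes tested. Tox, which encodes a nuclear factor needed for CD4 T cells and ILCs, fell from 501.1 ± 9.69 to 214.4 ± 5.86 CPM. Zbtb7b, the gene of ThPOK, which keeps Cd4 expressed in helper T cells, fell from 28.07 ± 5.01 to 17.26 ± 1.24 CPM (edgeR adjusted p = 0.0168), a call lost without medium replicate 2 (adjusted p = 0.0923) or without TL1A replicate 2 (0.0686). Lck, the kinase gene whose product binds the CD4 tail, was thinly read over 3 rows. It had 28 and 27 reads in medium, against 6 and 9 in the TL1A libraries (edgeR adjusted p = 0.0272). Lck, 1 of the 3 called lower, passed the filter on low counts only through its medium reads, so it could enter the test only if it fell. Its call was lost without any 1 of the 4 libraries (adjusted p 0.089 to 0.162), with the replicate number as a block (0.0598) and in DESeq2 (0.17), and held in only 3 of 9 alternatives. Runx3, which encodes a factor that silences Cd4 in cytotoxic T cells, rose from 284.3 ± 7.45 to 390.9 ± 15.1 CPM. Without medium replicate 2 or TL1A replicate 2 only 1 of these genes was called lower.

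Thy1 encodes CD90, a small glycolipid-anchored protein carried by ILCs and T cells. It had 1700 and 2103 reads in medium, against 7473 and 8403 in the TL1A libraries, or 135.4 and 157.5 CPM against 695.1 and 724.5 CPM. The 2 groups were well separated. The mean rose from 146.4 ± 15.7 to 709.8 ± 20.8 CPM (SD, n = 2), a 4.85-fold rise (log2 fold change 2.28, SE 0.09, 95% interval 2.07 to 2.49; edgeR adjusted p = 1.99e-06). A larger log2 fold change was found for 3.44% of the genes tested. Thy1 and Cd4, both used as surface markers of LTi cells, thus moved in opposite directions.

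Kit encodes the receptor for stem cell factor. It had 1 read in medium replicate 2 and 0 in the other 3 libraries. A count of 0 allows 3 reads, or 0.238 to 0.261 CPM of the assigned reads of a library, but here that limit holds only for the few bases that tell the rows apart and says nothing about the gene as a whole. No fold is given. Kitl, the gene of its ligand, had 4 reads in TL1A replicate 1 and 0 elsewhere.

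Genes that carry the signal of KIT inside the cell were measured better and did not move one way. Of 34 listed, 6 of the 20 tested were called higher and 3 lower, with 11 not passing; the median log2 fold change was 0.11. Cblb, which encodes a ubiquitin ligase that damps receptor signalling, rose from 76.87 ± 3.00 to 153.4 ± 7.10 CPM. Nras, a small GTPase gene, rose from 420.3 ± 22.2 to 686.4 ± 38.8 CPM. Stat5b fell from 42.24 ± 6.14 to 10.56 ± 0.07 CPM, whereas its close copy Stat5a was called higher (log2 fold change 1.66). Stat5a, which was picked with its values known, gave 13 and 14 medium reads against 36 and 38 in the TL1A libraries. Both have 2 rows and similar sequence, so the level of either is uncertain, and the Stat5a call was lost in DESeq2 (adjusted p = 0.0595) and without either TL1A library (0.0627 and 0.0566). The higher count was 3 in place of 6 without medium replicate 1, without TL1A replicate 1 or without TL1A replicate 2, and the lower count was 1 in place of 3 without medium replicate 1, in DESeq2 and among single-row genes.

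Nrp1 encodes neuropilin-1, a co-receptor for semaphorins and vascular endothelial growth factor. It had 20577 and 15927 reads in medium, against 13573 and 18217 in the TL1A libraries, or 1638 and 1193 CPM against 1262 and 1571 CPM. The highest and the lowest value were both medium libraries, so the TL1A values lay inside the medium range. The means were 1416 ± 315 and 1417 ± 218 CPM (SD, n = 2) and the log2 fold change was 0.00 (SE 0.16; adjusted p = 0.997, edgeR). The 95% interval of the difference, -0.36 to 0.37, leaves room for a change of either sign within it.

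The libraries of a group differed more in Nrp1 than in most genes of high count. The medium libraries differed by 0.46 on the log2 scale and the TL1A libraries by 0.32, where the medians over the 2704 genes with a mean of at least 1000 reads were 0.10 and 0.08. Of those genes, 3.77% differed more in medium and 5.36% more with TL1A. Set side by side by replicate number, the log2 ratio of TL1A to medium was -0.38 for number 1 and 0.40 for number 2. The fitted value was 0.24 without medium replicate 1 and -0.18 without medium replicate 2, 0.16 without TL1A replicate 1 and -0.16 without TL1A replicate 2, and none of these passed (smallest edgeR adjusted p = 0.137). The sign for Nrp1 was therefore set by which library was used. Endothelial cells also carry Nrp1; of 8 endothelial and stromal markers 6 had 0 reads in every library, 4 of them with 1 row, and the summed level was 2.5 to 4.22 CPM in all libraries.

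Among partners of NRP1, the plexins that pass on semaphorin signals were read and moved both ways, while most ligands had almost no reads. Of 22 listed genes, 4 of the 9 tested were called higher and 2 lower, with 3 not passing, and 7 had 0 reads in every library. Plxnd1, which encodes plexin-D1, rose from 49.44 ± 1.90 to 497 ± 14 CPM, a 10.1-fold rise (log2 fold change 3.33, SE 0.08; edgeR adjusted p = 2.59e-07). Plxna2 and Plxna3, named after their values were seen, had log2 fold changes of -1.31, called lower, and -0.75, not passed. Plxna1 rose from 40.16 ± 3.00 to 69.99 ± 4.67 CPM, and L1cam, a cell adhesion gene whose product associates with neuropilin-1, rose from 6.03 ± 2.06 to 26.29 ± 0.62 CPM. The lower count was 1 in place of 2 without medium replicate 1, without TL1A replicate 2 or with the stricter filter on low counts.

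Cd69 encodes a C-type lectin of recently activated lymphocytes. It had 2372 and 2765 reads in medium, against 7587 and 8083 in the TL1A libraries, or 188.9 and 207.1 CPM against 705.7 and 696.9 CPM. Every TL1A value was above every medium value, and Cd69 was already well read in the cells kept in medium. The mean rose from 198 ± 12.9 to 701.3 ± 6.19 CPM (SD, n = 2), a 3.54-fold rise (log2 fold change 1.82, SE 0.07, 95% interval 1.65 to 1.999; edgeR adjusted p = 2.23e-06). A larger log2 fold change was found for 4.83% of the genes tested.

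The RNA of the receptor that CD69 protein removes from the surface also rose. S1pr1 had 70 and 62 reads in medium, against 276 and 185 in the TL1A libraries, and went from 5.11 ± 0.66 to 20.81 ± 6.87 CPM (log2 fold change 2.02, SE 0.28; edgeR adjusted p = 0.000996). RNA says nothing here about either protein at the surface. The list of partners and regulators of CD69 and CD83 held 23 symbols, with Marchf1 and Marchf8 under 2 names each. Of these symbols, 21 were in the table and 12 were tested, with 6 higher, 4 lower and 2 not passing. Egr2, an activation-induced transcription factor gene, rose from 3.07 ± 0.85 to 498.5 ± 24.8 CPM. Nfkb1, the gene of an NF-κB subunit, rose from 237 ± 7.2 to 501 ± 22.7 CPM, and Myl12a, a myosin light chain gene whose family has been described as a CD69 ligand, from 387.4 ± 10.3 to 852.5 ± 32.7 CPM. The 4 called lower were named after their values were seen. They were Myl12b of the same light chain family (log2 fold change -0.47), Egr1 (-1.69), Irf1 (-1.66) and S1pr4 (-1.14). Irf1 encodes an interferon regulatory factor and S1pr4 another receptor of the S1PR1 family. The call was kept in 11 of 11 alternatives for Myl12b, 7 of 10 for Egr1, 7 of 11 for S1pr4 and 2 of 9 for Irf1. The Irf1 call was lost in DESeq2 (adjusted p = 0.244) and with the replicate number as a block (edgeR adjusted p = 0.0852). Rela and Nfkb2, of further NF-κB subunits, did not pass. The lower count was 1 in DESeq2 and on leaving out either medium replicate 1 or TL1A replicate 1, and 2 with the replicate number as a block and with the stricter filter; the higher count was 6 in each of the alternatives.

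Cd44 had 4 and 3 reads in medium, against 39 and 45 in the TL1A libraries, all on row NM_009851, or 0.319 and 0.225 CPM against 3.63 and 3.88 CPM. Every TL1A value exceeded the medium values by far, but on few reads. The 84 reads with TL1A and 7 in medium give a ratio of 13.9, with a 95% exact (Clopper-Pearson) interval of 6.46 to 35.7 that covers counting error only. The fitted log2 fold change was 3.75 (SE 0.49). Since Cd44 passed the filter only through its TL1A reads, its call there (edgeR adjusted p = 0.000795) had a direction fixed by the filter. With every gene of at least 1 read kept, whatever its group, it was also called (edgeR adjusted p = 8.00e-06). In that fit Cd4 and Thy1 had far smaller adjusted p values too (3.73e-13 and 7.85e-16). The smaller value is therefore not stronger evidence for Cd44. All Cd44 values describe the bases shown above and the row's own ends. Whether the standard form of Cd44 changed was not measured.

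Genes of hyaluronan and of CD44's partners included several that rose and 1 that fell. Of 25 listed, 4 of the 10 tested were called higher and 1 lower, with 5 not passing. The median log2 fold change was 0.24. Mmp9, the 1 called lower, had a log2 fold change of -4.07, and Ezr, which did not pass, of 0.02. Both were named after their values were seen. With the stricter filter on low counts, the lower count was 0 in place of 1. Msn encodes moesin, which ties the CD44 tail to actin, and rose from 2450 ± 3.66 to 3584 ± 4.17 CPM. Stab1, which encodes a scavenger receptor whose relative Stab2 clears hyaluronan, rose from 163.2 ± 12.7 to 796 ± 13.4 CPM (log2 fold change 2.29, SE 0.08; edgeR adjusted p = 1.07e-06). Cd74, the gene of the MHC class II invariant chain, which pairs with CD44 as a receptor for the cytokine MIF, rose by 4.26 on the log2 scale.

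Cd83 had 0 reads in both medium libraries and 2 and 1 with TL1A, all on row NM_009856. Both groups were at or under the limit of 3 reads, so no fold is given, and no difference could be detected with so few reads. Marchf1, the gene of the ubiquitin ligase that CD83 opposes, has 4 rows and had 0 reads in every library.

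Cd81 had 16866 and 18678 reads in medium, against 15314 and 15772 in the TL1A libraries, or 1343 and 1399 CPM against 1424 and 1360 CPM. The groups overlapped. The means were 1371 ± 39.5 and 1392 ± 45.6 CPM (SD, n = 2) and the log2 fold change was 0.02 (SE 0.06; adjusted p = 0.799, edgeR). Its 95% interval, -0.12 to 0.16, was narrower than that of Nrp1, at a like number of reads. An annotated gene on the opposite strand, R74862, spans 328 of the 1533 exonic bases of Cd81; it had 5 to 34 reads, and the strand setting of the counting is not given.

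Tetraspanin genes other than Cd81 were called in both directions, more of them lower. Of 26 tetraspanins and CD81 partners listed, 5 of the 14 tested were called lower and 2 higher, with 7 not passing. Among all genes tested, 21.7% were called lower and 20.6% higher. The median log2 fold change of the list was -0.71. Cd82 and Tspan3, the 2 called higher and named after their values were seen, had log2 fold changes of 2.02 and 1.03. Cd53, a tetraspanin gene of blood cells, fell from 2748 ± 154 in medium to 841.2 ± 25.8 CPM with TL1A (log2 fold change -1.71, SE 0.07; edgeR adjusted p = 1.8e-06). Tspan13 fell from 65.54 ± 7.31 to 19.03 ± 0.45 CPM, Tspan14 from 225.8 ± 1.81 to 97.52 ± 4.01 CPM and Cd9 from 151.3 ± 1.91 to 99.1 ± 3.22 CPM. The higher count was 1 in place of 2 with the stricter filter on low counts and among single-row genes. It was also lower without TL1A replicate 1.

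**Figure D3:**
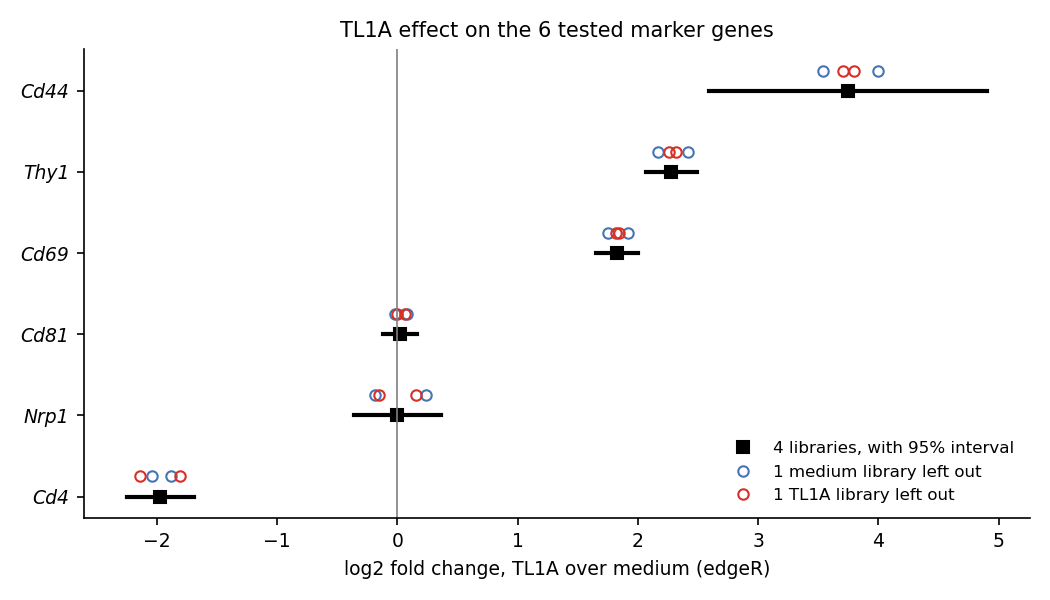
Log2 fold change of TL1A over medium for the 6 tested marker genes (x axis), with black squares and bars for the value and 95% interval from 4 libraries and open circles for the value with 1 library left out. The circles of Cd44, Thy1, Cd69 and Cd4 stay on 1 side of 0; those of Nrp1 run from -0.18 to 0.24 and those of Cd81 from -0.01 to 0.08.

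Per length, the 5 genes with 1 row changed their order. The lengths include the bases of Cd81 and Nrp1 that lie inside other annotated genes. In medium, CPM per kilobase of exon was 894.3 ± 25.8 for Cd81, 393.6 ± 87.6 for Nrp1, 119.8 ± 7.25 for Cd4, 117.4 ± 7.63 for Cd69 and 84.4 ± 9.02 for Thy1 (SD, n = 2). The library values of Cd4 and Cd69 overlapped, and the other neighbours in this order did not. With TL1A the same quantity was 908.1 ± 29.8 for Cd81, 415.7 ± 3.67 for Cd69, 409.1 ± 12 for Thy1, 393.8 ± 60.6 for Nrp1 and 30.58 ± 4.96 for Cd4. Cd69, Thy1 and Nrp1 overlapped there, Cd81 stood above them and Cd4 below.

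Other genes of LTi cells and ILC3 subsets moved both ways. Of 30 listed, 9 of the 28 tested were called higher and 12 lower, with 7 not passing; the median log2 fold change was -0.20. Ccr6, the chemokine receptor gene most used to define LTi-like cells, was at 155.9 ± 13.4 CPM in medium, beside 137.6 ± 21.7 CPM after stimulation (edgeR adjusted p = 0.286), summed over 7 rows. Cxcr5, the gene of the follicle-homing receptor, fell from 264.3 ± 10.99 to 179.3 ± 2.33 CPM. Ltb, which encodes lymphotoxin beta, rose from 17.9 ± 0.54 to 29.99 ± 2.05 CPM. Tnfsf11 and Ncr1, which encode RANKL and the receptor NKp46 of non-LTi ILC3s, rose by 4.601 and 4.798 on the log2 scale.

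Other activation surface genes were called in both directions. Of 36 listed, 11 of the 23 tested were called higher and 7 lower, with 5 not passing; the median log2 fold change was 0.76. Il2ra, the gene of CD25, went from 5282 and 5987 reads to 20720 and 22354, a 4.44-fold rise in CPM. Cd47, whose product signals to phagocytes not to engulf a cell, rose from 78.74 ± 3.25 to 354.5 ± 0.77 CPM. Icam1, an adhesion molecule gene shared with the LTi list, rose by 4.63 on the log2 scale. The 7 called lower were named after their values were seen. They were Tigit (log2 fold change -3.44), Cd28 (-3.03), Pdcd1 (-2.49), Cd38 (-1.83), Nt5e (-1.47), Icos (-1.01) and Tnfrsf18 (-0.70). Among them, Cd28 passed the filter on low counts only through its medium reads.

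**Figure D4:**
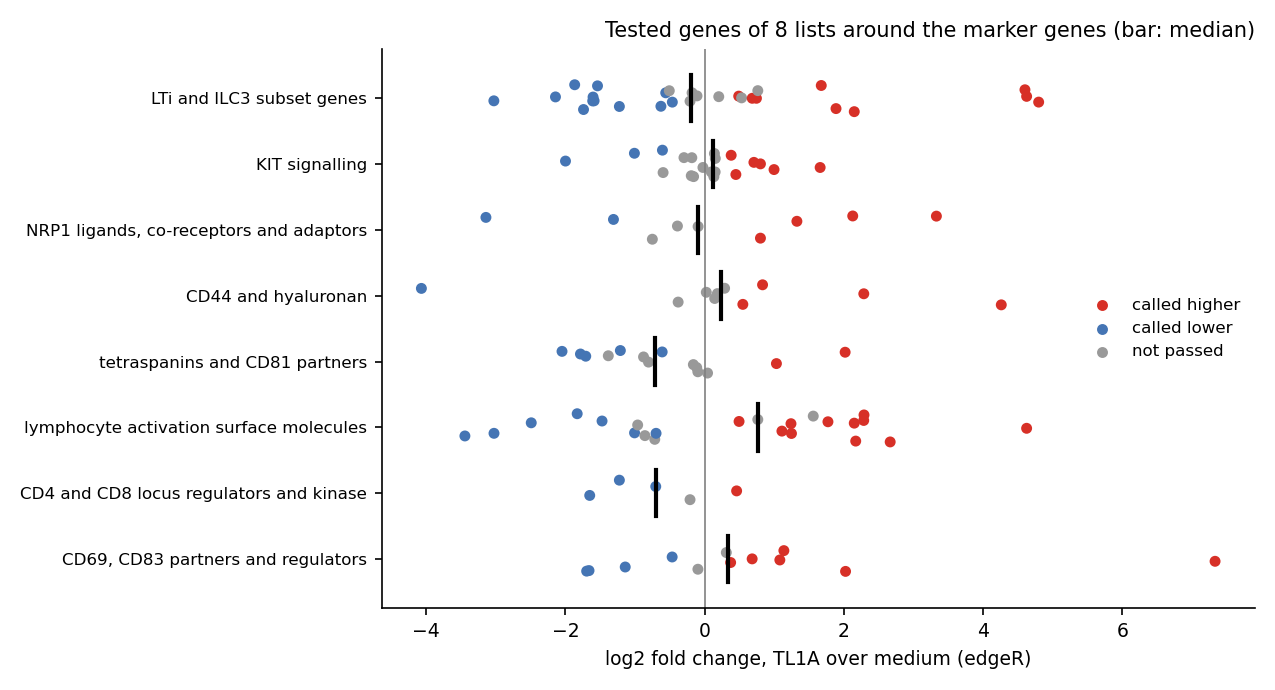
Each point is a tested gene of 1 of 8 lists around the marker genes, placed by its log2 fold change of TL1A over medium (x axis), in red where called higher, blue where called lower and grey where not passed; black bars are list medians. Medians run from -0.71 for tetraspanins and CD81 partners to 0.76 for activation surface molecules. Among all genes tested, 20.6% were called higher and 21.7% lower.

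The genes whose pattern over the 4 libraries was nearest to each marker were found by the Euclidean distance between log2 CPM values, each centred on its own mean, among genes with a mean of at least 100 reads. Nearest to Cd4 were Cers4 (distance 0.12) and Jaml (0.13), and nearest to Cd69 were Lta (0.08), the lymphotoxin alpha gene, and Kctd11 (0.08). Rpl39l (0.05) and Slco4a1 (0.07) were nearest to Thy1, Cdk6 (0.03) and 4833422C13Rik (0.08) to Cd44, Utp3 (0.06) and Nipsnap3b (0.06) to Nrp1, and Psme4 (0.01) and Dnttip2 (0.02) to Cd81. Within a distance of 0.2 there were 19 genes for Cd4, 41 for Cd69, 33 for Thy1, 103 for Nrp1, 1088 for Cd81 and 2 for Cd44. The values for Cd44 are damped by the prior count of 2 added before the logarithm.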

How the data were processed

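The submitters' processing notes name CASAVA, STAR, HTSeq and the build mm9; versions, annotation release and strand setting are not stated in these sources. Per the labels' protocols, a SMARTer Ultra Low Input kit made the cDNA. Per the file headers and the values, the authors deposited unnormalized counts for 33535 RefSeq transcripts. The 5 HTSeq summary rows (69.9% to 71.3% of a column) were left out; among reads that met a feature, 33.7% to 34% were ambiguous between rows.

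Accessions were matched to symbols with a RefSeq table of GRCm38.p6 (33154 matched, 381 not) and rows were summed per gene, which gave 19359 genes with 1 row and 4984 with several. The plan assumed a gene table. Genes were tested with edgeR 4.0.16 under R 4.3.3 (filterByExpr at its minimum count of 10, TMM factors, glmQLFit, glmQLFTest, two-sided, Benjamini-Hochberg over 9852 genes). The script was tested on simulated data. DESeq2 1.42.0 and limma 3.58.1 (voom) were alternatives. Named genes were the 8 markers, fixed partners, the 3 tested genes of each list with the smallest p, and the nearest patterns. Marker genes and lists were chosen with earlier results of these data known. Sequences are from GENCODE M21 transcripts.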

Additional observations from a re-analysis of the deposited data

How the results depend on the processing

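Cd4, Thy1 and Cd69 kept direction and call under all 12 alternatives run for each: the log2 fold change was -2.14 to -1.80 for Cd4, 2.16 to 2.42 for Thy1 and 1.75 to 1.92 for Cd69. Cd44 kept both under the 10 in which it could be tested (3.54 to 3.99), though filters based on group size let it in only through its TL1A reads; it could not be under the stricter filter of 50 counts in 2 libraries, chosen after seeing the data, or among single-row genes. Nrp1 changed sign under the stricter filter (-0.0092), among single-row genes (-0.0080), without medium replicate 2 (-0.18) or TL1A replicate 2 (-0.16); with 1 library left out it ranged from -0.18 to 0.24. Cd81 changed sign without medium replicate 1 (-0.015) or TL1A replicate 1 (-0.0047), in a range of -0.015 to 0.079; neither was called in any alternative. Over all genes, 1596 to 2295 were higher and 1597 to 2439 lower. With no filter on low counts, Kit and Cd83 entered the test and did not pass (adjusted p = 0.651 and 0.387). Where a library was left out, the lone library of a group was assumed to vary like the other group.

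The titles give both groups the replicate numbers 1 and 2. Same-numbered libraries did not deviate together (correlation across genes -0.105), a single value with 2 libraries a group; what a number stands for is not known, and it was not used to pair libraries. With the replicate number as a block, 1736 genes were higher and 1806 lower, and 3 markers were higher and 1 lower (Cd4 -1.98, Thy1 2.28, Cd69 1.83, Cd44 3.75, Nrp1 0.01, Cd81 0.02). With the numbers crossed, 2295 genes were higher and 2439 lower, and the same numbers of markers were called.

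Kit, Cd83 and Cd44, with 2, 2 and 6 rows, had 1, 3 and 91 reads over the 4 libraries. Of all genes with several rows, 64.1% had fewer than 10 reads in all, against 49.7% of genes with 1 row. Whether shared sequence or low expression set the counts of Kit, Cd83 and Cd44 was not tested.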

Other observations

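Cpa3, a mast cell protease gene also read in early lymphoid cells, had 212 and 314 reads in medium, against 2 and 0 in the TL1A libraries. The ratio of medium to TL1A was 227 (95% exact counting interval 62.5 to 1880). Cpa3 passed the filter on low counts only through its medium reads, so it could enter the test only if it fell. The fold rests on the 2 reads of 1 library: fitted over all 4 libraries it was -7.66 on the log2 scale, and it became -10.98 when TL1A replicate 1 was left out and -6.68 when TL1A replicate 2 was. It was the only 1 of 9 listed mast cell markers with a read in any library, and these are cells that also carry KIT; 7 of the 8 at 0 have 1 row. Of 10 dendritic cell and myeloid markers, 7 were tested, 2 were higher and 1 was lower, and their summed level was 84.8 and 94.74 CPM in medium beside 75.24 and 88.03 CPM with TL1A. Zbtb46, a transcription factor gene known from dendritic cells, had 75 and 106 reads in medium, against 469 and 503 in the TL1A libraries (log2 fold change 2.64, SE 0.18; edgeR adjusted p = 3.05e-05). Zbtb46 has 2 rows, so its level is uncertain. Cd14, the monocyte co-receptor gene, fell by 3.18 on the log2 scale. Adgre1, a macrophage gene, rose by 0.91, but did not pass in the blocked fit (edgeR adjusted p = 0.0524) or on leaving out medium replicate 2 (0.099) or TL1A replicate 2 (0.141). Itgax, Flt3, Lyz2 and Csf1r did not pass. Genes named here were picked out after their values were seen.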
